A study of Mus musculus with 6 samples.

Results

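miR-132 and miR-212 are made from neighbouring hairpins of 1 cluster, and each hairpin can release a mature miRNA from its 5p arm and its 3p arm. The 4 mature names, mmu-miR-132-5p, mmu-miR-132-3p, mmu-miR-212-5p and mmu-miR-212-3p, were taken from the deposited table by exact name, and all 4 were found among its 2009 names. The prefix mmu, for mouse, is left out below. Levels were compared between 3 sham hearts and 3 hearts subjected to ischemia followed by reperfusion (I/R), all from male mice. Every heart was isolated and perfused on a Langendorff system, which supplies the organ through the aorta, so perfusion outside the body is shared by both groups. Sham hearts kept beating, and I/R hearts were stopped for 30 min with cardioplegia, a solution that halts contraction, before reperfusion of 1 h. The sources used here give no strain, age or genotype, and the labels call the replicates of each group biological replicates.

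The cluster is known for induction by the transcription factor CREB, which couples neuronal activity and growth signals to transcription. In heart muscle miR-132 and miR-212 are known as pro-hypertrophic miRNAs that repress the transcription factor Foxo3, and the 3p arms are the strands usually studied. A mature miRNA finds its target mRNAs mainly through its seed, the bases 2 to 8 from its 5′ end.

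The mature sequences are shown first because the seeds divide the 4 names. They are written 5′ to 3′ with the seed in capitals, and come from RefSeq on GRCm38.p6, in which all 4 names were matched.
miR-132-5p: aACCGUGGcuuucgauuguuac
miR-132-3p: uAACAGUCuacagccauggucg
miR-212-5p: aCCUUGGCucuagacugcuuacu
miR-212-3p: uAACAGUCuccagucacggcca
Both 3p arms carry the seed AACAGUC, and among 1679 mature mouse names in the RefSeq table no other name carried it. The seeds of the 5p arms differ from each other and from it, and no other name in that table carried either of them. The 3p arms share their first 9 bases and are identical at 17 of 22 positions. Their differences, counted from 1 at the 5′ end with the base of miR-132-3p first, are A10C, C14U, U17C, U20C and G22A. The 5p arms are identical at 9 of the 22 positions compared. The longest run that any of the 4 sequences shares with another mature name of the table, members included, is 10 bases.

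The hairpins are printed to show which strand of each stem the reads belong to, with both arms in capitals.
Mir212 hairpin: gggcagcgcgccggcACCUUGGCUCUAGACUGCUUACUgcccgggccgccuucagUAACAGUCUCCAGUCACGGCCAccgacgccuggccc
Mir132 hairpin: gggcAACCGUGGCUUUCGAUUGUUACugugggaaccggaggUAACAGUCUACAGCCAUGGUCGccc
On the plus strand of chromosome 11 (GRCm38.p6), the Mir212 hairpin lies at 75173388 to 75173478 and the Mir132 hairpin at 75173682 to 75173747, with 203 bases between them. In the GENCODE annotation both lie in an intron of the noncoding host transcript 1700016P03Rik (75172560 to 75177633, plus strand). The nearest protein-coding genes are Ovca2, which lies 2195 bases beyond Mir132, and Hic1, which lies 3869 bases before Mir212, both on the minus strand. The RefSeq table lists no hairpin on the opposite strand of the locus.

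Depth was 7874103 to 9197869 counted reads per library, summed over the names, and 799 to 867 names lay above 0. Some names had nearly equal counts over the 6 libraries, such as miR-122-5p with 184 and miR-122b-3p with 182. Likewise, miR-486a-5p had 75664 and miR-486b-3p 75704. The most abundant, miR-1a-3p, had 18800455, and miR-1b-5p had 9400897. Reads may thus have been counted under more than 1 name, also within the depth that scales every level, which was not tested. Levels are RPM, the reads of a name scaled to 1000000 reads per library, and 3 reads, taken as the counting limit, corresponded to 0.326 to 0.381 RPM. The cardiomyocyte markers miR-1a-3p, miR-133a-3p, miR-208a-3p and miR-499-5p were all present and together held 385458 to 389856 RPM in the sham group and 357828 to 383230 RPM after I/R. Of 8 neuronal markers, miR-124-3p was at 0 in every library, miR-137-3p had 1 read in all, miR-153-3p 11 reads and miR-138-5p 46 reads. The other 4 passed the filter on level used below, with miR-9-5p at 81.1 to 146 RPM, above each member of the cluster, miR-129-5p at 7.08 to 11.9 RPM and miR-9-3p at 0.435 to 1.83 RPM. miR-128-3p, at 2730 to 4369 RPM, held most of that list's 2871 to 4397 RPM in the sham group and 3795 to 4526 RPM after I/R. Leukocyte markers held 112 to 152 RPM without and 122 to 127 RPM after I/R, and erythroid markers 3.33 to 6.96 and 1.65 to 5.26 RPM. Endothelial markers held 24893 to 27478 and 25829 to 31830 RPM, smooth muscle and pericyte markers 36568 to 47621 and 42086 to 50887 RPM, and fibroblast markers 1357 to 1821 and 1801 to 2129 RPM. The part of these other cell types in the levels below was not tested. In bulk tissue, fewer cells of a type and less RNA per cell cannot be told apart.

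Of the members, 3 had moderate levels and miR-212-3p was scarce. Over the 6 libraries miR-212-5p averaged 41.4 ± 8.32 RPM, miR-132-5p 32.4 ± 3.87 RPM, miR-132-3p 23.8 ± 8.95 RPM and miR-212-3p 0.467 ± 0.312 RPM (SD, n = 6). By mean level they ranked 152, 166, 177 and 498 among the 2009 names. miR-212-5p stood above miR-132-5p in 5 of 6 libraries, and miR-132-5p above miR-132-3p in 5 of 6, with sham replicate 2 as the exception both times. The ranges of these neighbours in the order overlapped. All 3 were far above miR-212-3p in every library. Column totals match division of every value by the same length, 23 nt, and the members are 22 or 23 nt long, so length hardly enters their comparison. How well each sequence is recovered in library preparation was not measured. The order of the members and the arm shares below therefore describe counted reads, not amounts in the heart.

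**Figure D1:**
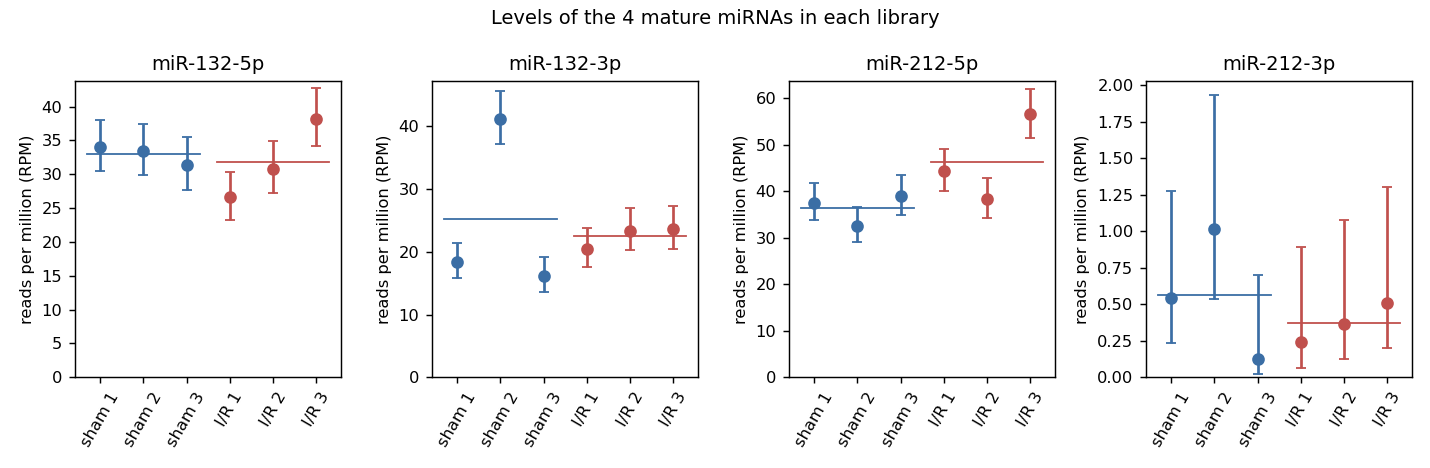
Level in RPM of each mature miRNA in each library, with sham in blue and I/R in red. Points are libraries, bars are 95% Wilson intervals that cover counting error only, and horizontal lines are group means. miR-132-3p in sham replicate 2, at 41.1 RPM, stands above the other 5 libraries, at 16.2 to 23.6 RPM.

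The 5p arm of miR-132, usually the less studied strand, had a narrower range in the sham hearts than in the I/R hearts. miR-132-5p stood at 34.0, 33.5 and 31.4 RPM in sham replicates 1 to 3, and its levels in I/R replicates 1 to 3 were 26.6, 30.8 and 38.2 RPM. The lowest and the highest library were both I/R hearts, so the groups overlapped, and the difference in spread was not tested. The mean was 32.9 RPM for sham (SD 1.4) and 31.9 ± 5.89 RPM for I/R (SD, n = 3 each). The log2 fold change from limma, on log2(RPM + 1), was -0.06 (SE 0.16, 95% interval -0.41 to 0.29, limma adjusted p = 0.894). The interval leaves room for a change of either sign, and without I/R replicate 1 the value was 0.058.

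The 3p arm of miR-132, which carries the shared seed, had 1 library far from the rest. miR-132-3p stood at 18.4, 41.1 and 16.2 RPM in sham replicates 1 to 3, and its levels in I/R replicates 1 to 3 were 20.4, 23.4 and 23.6 RPM. Sham replicate 2 was the highest of all and the other sham hearts were the lowest of all, so the I/R values lay between them. The level of 41.1 RPM rested on 364 reads (95% Wilson interval 37.1 to 45.6 RPM), whereas the next highest library held 186 reads (20.5 to 27.3 RPM). Means were 25.2 ± 13.8 RPM for sham and 22.5 ± 1.80 RPM for I/R (SD, n = 3 each).

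The test on miR-132-3p did not pass, and its sign turned without that sham heart. With all 6 libraries the log2 fold change was -0.04 (SE 0.30, 95% interval -0.73 to 0.64, limma adjusted p = 0.968). Without sham replicate 2 it was 0.36 (interval 0.03 to 0.69), and limma's adjusted p over all names was 0.465. Without I/R replicate 1 the value was 0.02.

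The 5p arm of miR-212 was the most abundant member and the one with the largest fold change among the 3 that could be tested. miR-212-5p stood at 37.5, 32.6 and 39.0 RPM in sham replicates 1 to 3, and its levels in I/R replicates 1 to 3 were 44.3, 38.3 and 56.5 RPM. The 2 highest libraries were I/R hearts, but I/R replicate 2 lay below sham replicate 3, so the groups overlapped. Means were 36.4 ± 3.38 RPM and 46.4 ± 9.29 RPM (SD, n = 3 each). The log2 fold change was 0.33 (SE 0.17, 95% interval -0.05 to 0.70), which did not pass (limma adjusted p = 0.628). Between libraries of the same number, I/R minus sham was 0.23, 0.23 and 0.52 on the log2(RPM + 1) scale. How many other names were higher in every such pair was not counted, and 287 of all 409 names (70.2%) had a positive fold change. The labels do not pair the libraries, so the replicate block below rests on an assumed pairing. With the replicate number as a block the interval was 0.02 to 0.64 and limma's adjusted p 0.342, in a fit that called 4 of 409 names (0.978%), none of them a member. With the block and median-ratio scaling together, a setting chosen after seeing the data, the log2 fold change was 0.23 (interval -0.04 to 0.50, limma adjusted p = 0.578). Without I/R replicate 3, the library with the highest value for 158 of 409 names, the log2 fold change was 0.18.

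miR-212-3p, the partner of miR-132-3p by seed, was too scarce for a comparison. Sham replicates 1 to 3 had 5, 9 and 1 reads of it, and I/R replicates 1 to 3 had 2, 3 and 4, which makes 15 and 9 reads per group. These are levels of 0.544, 1.02 and 0.123 RPM for sham and of 0.244, 0.367 and 0.508 RPM for I/R, and 3 of the 6 libraries held no more than the 3 reads of the counting limit. Its mean level of 0.467 RPM lay below the 1 RPM needed to enter the test. Fitted without that filter, the log2 fold change was -0.15 (95% interval -0.69 to 0.40, limma adjusted p = 0.804, where 1 of 1259 names passed, 0.0794%), and on this scale the pseudocount of 1 RPM outweighs the level itself. On the reads without the filter, edgeR gave -0.67 (adjusted p = 0.738) and DESeq2 -0.71 (SE 1.03). In limma without sham replicate 2 it was 0.056. No change in miR-212-3p was detected with these few reads, and how large a change could have been detected was not tested.

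Read against the whole table, the members did not stand out by test or by separation. None of the 3 tested members passed the limma threshold of 0.05, where 0 of 409 names passed (0%) and 30 had an unadjusted p under 0.05 (7.33%). None of the 3 had such a p. edgeR on the recovered reads likewise called 0 of 409 (0%), and 26 names (6.36%) had an unadjusted p under 0.05 there. DESeq2 made 2 calls (0.489%), neither of them a member. Groups that did not overlap were found for 15.2% of the 409 names and for 0 of the 3 members. Of the 409 names, 287 had a positive fold change (70.2%), a count that was 214 with median-ratio scaling (52.3%), 213 in DESeq2 (52.1%), 237 with totals without the 10 most abundant names (57.9%), 200 in edgeR with TMM (48.9%) and 194 with quantile normalization (47.4%). The median log2 fold change over all names was 0.10, so miR-212-5p lay 0.23 above it and both miR-132 arms below it. Quantile normalization moved that median by -0.11 and edgeR with TMM by -0.11. Under these the log2 fold changes of miR-212-5p were 0.20 and 0.23, of miR-132-5p -0.09 and -0.17, and of miR-132-3p -0.08 and -0.28.

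**Figure D2:**
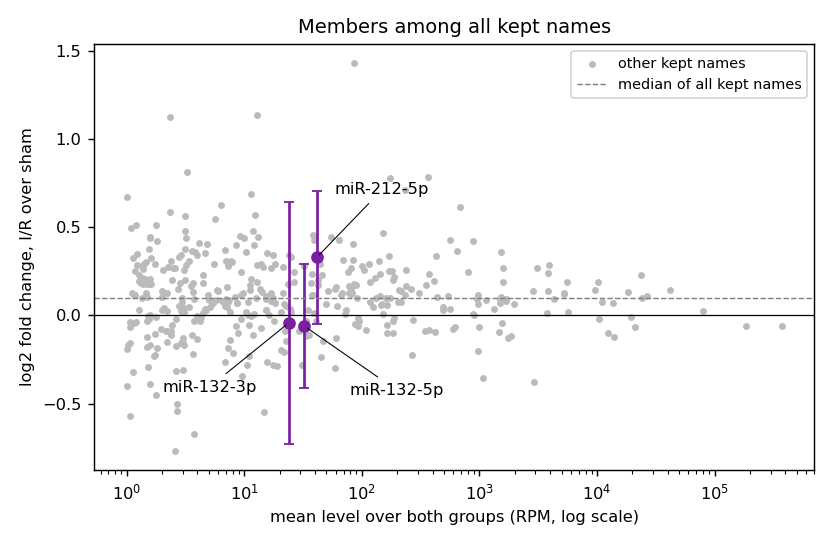
Log2 fold change (I/R over sham, log2(RPM + 1) scale) against mean level (RPM, log axis) for the 409 tested names in grey, with the 3 tested members in purple and their 95% limma intervals. All 3 intervals cross 0 and lie among the other names of similar level, and the dashed line marks the median of 0.10.

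**Figure D3:**
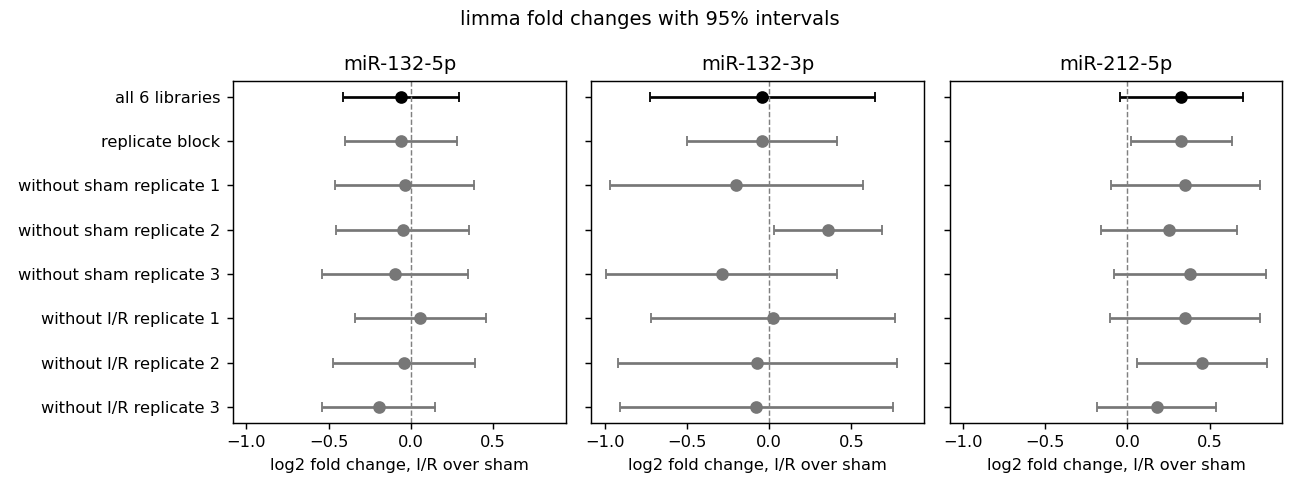
limma log2 fold changes with 95% intervals for the 3 tested members, from all 6 libraries (black), with the replicate block, and with each library left out in turn (grey). miR-132-3p moves from -0.04 to 0.36 without sham replicate 2, and miR-212-5p lies between 0.18 and 0.45 when a library is left out.

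The cluster as a whole did not differ beyond the spread. Summed over the 4 members, the level was 90.5, 108 and 86.7 RPM in sham replicates 1 to 3 and 91.5, 92.8 and 119 RPM in I/R replicates 1 to 3. The highest sum was an I/R heart, and sham replicate 2, with the highest miR-132-3p, came next. Means were 95.1 ± 11.5 RPM and 101 ± 15.4 RPM (n = 3 each), a difference of 5.97 RPM (two-sided exact permutation p = 0.5, where 0.1 is the smallest that 3 against 3 hearts allow). With median-ratio scaling the difference was -1.03 RPM, and without I/R replicate 3 it was -2.94 RPM.

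The hairpins differed in how the reads were divided between the arms. In the miR-212 hairpin the 5p arm held 98.6%, 97.0% and 99.7% of the reads in sham and 99.5%, 99.1% and 99.1% in I/R replicates 1 to 3. The excess was present in every library, from 32.0 to 316 reads of 5p for each read of 3p. In the miR-132 hairpin the 5p arm held 64.9%, 44.8% and 66.0% in sham and 56.6%, 56.9% and 61.8% in I/R replicates 1 to 3. Both arms were thus well represented, and the 3p arm was the larger one only in sham replicate 2, where the 95% Wilson interval of the 5p share was 41.1% to 48.7%.

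The arm shares of both hairpins can be set against those of the other precursors. Over the 202 precursors with both arms listed and at least 100 reads in all, a minimum set after the data were seen, 108 had more 5p than 3p reads (53.5%). A 5p share of at least that of miR-212, 98.9% over all libraries, was found for 44 of them (21.8%), miR-212 included. A share between 40% and 70%, bounds chosen after the value of miR-132 (57.5%) was seen, was found for 23 (11.4%). The counts rest on different bounds and do not rank the hairpins. Some precursors, such as miR-486a and miR-486b, may hold the same reads with the arms exchanged, which was not tested.

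Arm balance was tested for miR-132, where both arms passed the filter. The log2 ratio of 5p to 3p, each with 1 RPM added, was 0.85, -0.29 and 0.91 in sham and 0.37, 0.39 and 0.67 in I/R replicates 1 to 3. The I/R hearts again lay between sham replicate 2 and the other sham hearts. The difference was -0.02 (SE 0.33, 95% interval -0.82 to 0.78, limma adjusted p = 0.967), and 0 of 94 precursors passed (0%), with 6 at an unadjusted p under 0.05 (6.38%). Without sham replicate 2 the difference was -0.41 (interval -0.78 to -0.03, limma adjusted p = 0.414). miR-212 had 1 arm below the filter and was not tested.

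**Figure D4:**
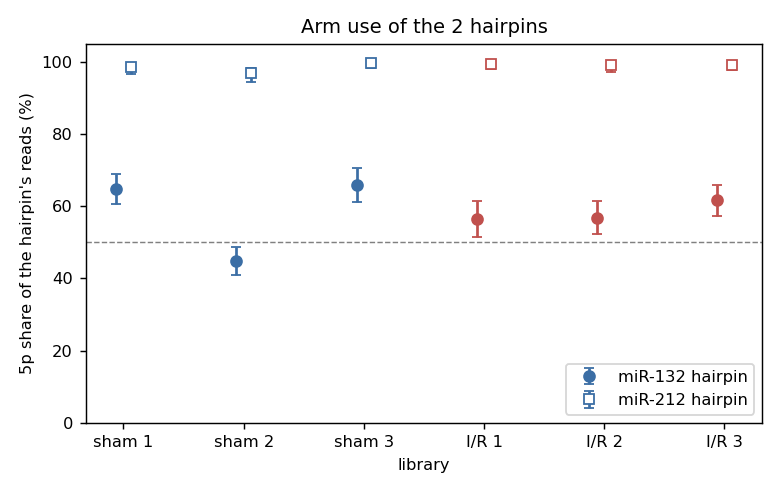
Share of each hairpin's reads that belong to the 5p arm, in percent, per library, with 95% Wilson intervals. Filled circles are miR-132 and open squares miR-212, in blue for sham and red for I/R. Only miR-132 in sham replicate 2, at 44.8%, lies below the dashed line at 50%.

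Of the reads of both 3p arms, which share the seed AACAGUC, nearly all were miR-132-3p. Its share in the sum of both 3p arms was 97.1%, 97.6% and 99.2% in sham and 98.8%, 98.5% and 97.9% in I/R replicates 1 to 3. Means were 98.0 ± 1.11% and 98.4 ± 0.46% (n = 3 each), a difference of 0.40 percentage points (two-sided exact permutation p = 0.7). The groups overlapped, and the sign turned without sham replicate 1, where the difference was -0.026. Counted names that the RefSeq table lacks were not checked for this seed.

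Sham replicate 2 also stood apart for other names. On log2(RPM + 1), miR-132-3p was at least 1.5-fold higher there than in any other library, and so were 9 other names of the 409 tested (10 in all, 2.44%). The count of such names was 7 for I/R replicate 3, 2 for I/R replicate 2, 1 for I/R replicate 1 and 0 for sham replicates 1 and 3. Those in sham replicate 2 were chosen after their values were seen and include miR-133a-3p, a muscle miRNA, at 1798 RPM against 798 to 1006 RPM elsewhere. They also include miR-145a-5p, a smooth muscle miRNA, at 78.0 RPM against 32.6 to 41.8 RPM, and miR-208a-5p, encoded within Myh6, a heart myosin gene, at 3.39 RPM against 0.864 to 1.78 RPM.

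Of the 10 names, 5 had an opposite arm with at least 100 reads in all, and none of these opposite arms was 1.5-fold higher in sham replicate 2 than in every other library. That rule was met by only 10 of all 409 names (2.44%), so few of any 5 names would meet it. The 10 names were picked for being high in that library and their opposite arms were not. The ratios below therefore cannot show a difference between arms, which was not tested. Sham replicate 2 stood at 2.02 times the mean of the other 5 libraries for miR-132-3p but at 1.04 times for miR-132-5p. The ratios were 1.93 for miR-133a-3p and 1.07 for miR-133a-5p, 2.03 for miR-145a-5p and 0.881 for miR-145a-3p, 2.31 for miR-208a-5p and 0.991 for miR-208a-3p, and 2.44 for miR-350-3p and 1.31 for miR-350-5p. The arm that was high was the 3p arm in some hairpins and the 5p arm in others. Over 94 precursors the 5p to 3p ratio was lowest of the 6 libraries in sham replicate 2 for 15, among them miR-132, and highest there for 33. The other libraries were lowest for 4 to 29 and highest for 8 to 15, so the 15 lay within their range and the 33 above it. The depth of sham replicate 2, 8847867 reads, lay within the range of the other libraries.

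**Figure D5:**
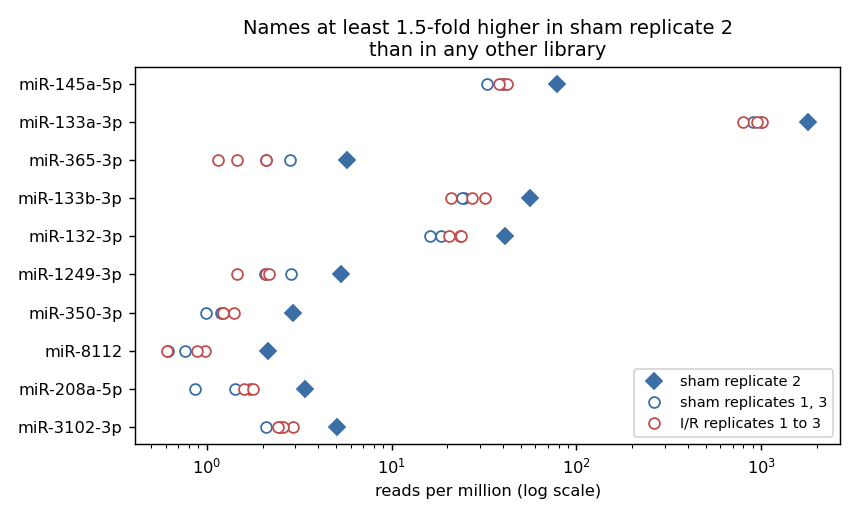
Level in RPM (log axis) of the 10 names at least 1.5-fold higher in sham replicate 2 (filled diamonds) than in any other library (open circles, blue for sham and red for I/R). miR-132-3p is the fifth from the top, and the other libraries lie close together for most of the 10 names.

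The names most like the 3p arms across libraries were, like them, highest in sham replicate 2. With miR-132-3p, the highest Pearson's r of log2(RPM + 1) over the 6 libraries was 0.99 for miR-16-5p (Spearman's rho 0.89), 0.97 for miR-23b-3p (0.83) and 0.97 for miR-208a-5p (0.94), picked from 408 other names and given as a description. Without sham replicates 2 and 3, which lay farthest from the median, r was 0.88, 0.67 and 0.71. The highest library of miR-16-5p stood only 1.22 times above its lowest. For miR-212-3p the closest names were miR-335-5p, miR-342-5p and miR-350-3p (r 0.93, 0.91 and 0.90), but with 24 reads in all no pattern is read from this. Among the 3 tested members, r was 0.24 between the arms of miR-132, 0.28 between the 5p arms and -0.33 between miR-132-3p and miR-212-5p (Spearman's rho 0.26, -0.03 and -0.14).

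Among names of similar level, miR-212-5p lay next to miR-542-3p and miR-504-5p, with means of 42.0 and 40.4 RPM over the 6 libraries. miR-132-5p lay between miR-30d-3p at 33.6 RPM and miR-222-3p at 31.9 RPM. miR-132-3p lay between miR-7043-3p at 24.2 RPM and miR-652-3p at 23.4 RPM. In each case the ranges over libraries overlapped with that of the member.

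Other miRNAs linked to neuronal activity did not pass the test. Of 7 listed, 4 passed the filter on level, all 4 had positive fold changes and 0 passed the test, with a median log2 fold change of 0.35 beside 0.10 over all names. As 287 of all 409 names were positive too, the signs do not set the list apart, and under each of the other 5 scalings 3 of the 4 were positive. The inflammation-linked miR-146a-5p had means of 123 ± 9.72 RPM for sham and 157 ± 50.3 RPM for I/R (n = 3 each; log2 fold change 0.31, limma adjusted p = 0.661). Its highest library was I/R replicate 3, at 214 RPM, whereas the other I/R hearts stood at 137 and 119 RPM and the sham hearts at 112 to 131 RPM. The synaptic miR-134-5p was at 10.3 ± 1.43 and 14.0 ± 1.95 RPM (0.40, limma adjusted p = 0.598), and miR-181c-5p at 7.48 ± 2.33 and 7.52 ± 1.86 RPM (0.02, limma adjusted p = 0.976). The groups did not overlap for miR-134-5p, as for 15.2% of the 409 names, and overlapped for miR-146a-5p, miR-181c-5p and miR-184-3p. Of the 3 names that did not pass the filter, miR-124-3p was at 0, and miR-219a-5p and miR-188-5p had 16 and 10 reads in all.

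Among 10 other miRNAs described as pro-hypertrophic, 6 had a positive and 4 a negative fold change, the median was 0.10, and 0 passed the test. Over all names 287 were positive and 122 negative, and under each of the other 5 scalings the list had 5 positive and 5 negative. The most abundant were miR-21a-5p, miR-22-3p and miR-27b-3p, with log2 fold changes of 0.23, -0.10 and 0.14 (limma adjusted p from 0.598 to 0.661). Their groups overlapped for miR-21a-5p but not for miR-22-3p, lower after I/R, or miR-27b-3p, higher after I/R. Among 12 anti-hypertrophic miRNAs 4 had a positive and 8 a negative fold change, the median was -0.03, and 0 passed the test, with 2 to 4 positive under the other scalings. Their most abundant members, miR-1a-3p, miR-378a-3p and miR-30a-5p, had log2 fold changes of -0.06, 0.10 and -0.01 (limma adjusted p from 0.661 to 0.964). The groups did not overlap for miR-1a-3p, lower after I/R, and overlapped for miR-30a-5p. Of the negative names, miR-133a-3p (-0.36) and miR-133b-3p (-0.28) were among those at least 1.5-fold higher in sham replicate 2. So was miR-350-3p of the pro-hypertrophic list. The pro-hypertrophic names together held 41492 to 52222 RPM, and the 4 members 86.7 to 119 RPM. These are counted reads of different sequences and do not compare amounts in the heart.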

How the data were processed

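Small RNA of 6 mouse hearts was compared, grouped by the labels. The protocol text names poly(A) mRNA kits, while the sample titles say miRNA-seq. The deposited file holds a signal for each mature miRNA in each library and is named FPKM. The tools fastp 0.23.0 and bcl2fastq 2.19.1.403 and the mm10 build were used, per the submitters' processing notes. The aligner, miRNA annotation, strand setting and handling of reads with several matches were not given in the sources used here. The deposited columns have equal totals, and division by each column's smallest value above 0 gave whole reads for 100% of values (tolerance 0.01 reads). The design assumed FPKM, and its test on log values was kept. RPM came from these reads. No source describes collapsing reads to molecules, so Wilson intervals and the limit of 3 reads cover counting error only.

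Changes were tested with limma 3.58.1 (R 4.3.3), two-sided, with a mean-variance trend on log2(RPM + 1) and Benjamini-Hochberg adjustment. Tested were 409 names whose mean reached 1 RPM and which were detected in 3 or more of the 6 libraries. This scale understates changes of low names. Arm balance used 94 precursors with both arms kept, and single measures used exact permutation tests. Alternatives were pseudocounts of 0.1 and 10 RPM, no filter, 3 scalings, the replicate block, edgeR 4.0.16, DESeq2 1.42.0 and each library left out. The fits were also run on simulated counts with 1 fixed spread setting and no library set apart. Those runs do not cover data in which single libraries stand apart, and nothing is concluded from them here.

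Deviations from the group means had correlations of 0.14, 0.28 and 0.16 for same-numbered libraries and -0.19 to 0.07 for the rest. On this basis alone the numbers were treated as pairs in the replicate block. The labels state no pairing, and correlations from the same data cannot show that the libraries were made as pairs. Members, lists and tests were chosen with earlier results of these data known. Named are the 4 members, the 3 most abundant names of each comparison list, the 3 names most like each 3p arm and kept names next in level.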

Additional observations from a re-analysis of the deposited data

How the results depend on the processing

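No member passed at an adjusted p of 0.05 under any alternative run, where the adjusted p was 0.739 to 0.962 for miR-132-5p, 0.465 to 0.987 for miR-132-3p and 0.342 to 0.953 for miR-212-5p, and at least 0.708 for miR-212-3p in the fits without the filter. The log2 fold change of miR-212-5p was 0.18 to 0.45 over the alternatives; the block, the fit without a trend and the lack of a filter alter its error or adjusted p, and by construction not its value. Leaving out each library in turn gave -0.20 to 0.058 for miR-132-5p, -0.29 to 0.36 for miR-132-3p, and -0.37 to 0.056 for miR-212-3p without the filter. It gave -0.41 to 0.19 for the arm balance of miR-132, -2.94 to 12.5 RPM for the summed level and -0.026 to 1.03 percentage points for the share of miR-132-3p. With a pseudocount of 10 RPM the arm balance of miR-132 was 0.0071, and with median-ratio scaling the summed level differed by -1.03 RPM; the cause was not tested. The number of called names, 0 with limma, was 4 with the replicate block, 2 with the block and median-ratio scaling (a setting chosen after seeing the data), 2 in DESeq2, 1 without the filter, and 0 to 1 when each library was left out, the 1 being without sham replicate 2; no member was among them. The replicate block changed no call of a member: the log2 fold changes were -0.06, -0.04 and 0.33 with it for miR-132-5p, miR-132-3p and miR-212-5p, the arm balance was -0.02, and paired sign flips gave exact p = 0.75 for the summed level and for the share of miR-132-3p, where 0.25 is the smallest possible. The fit without a trend, also chosen after seeing the data, called 0 names. Low counts limit what can be read from miR-212-3p, which had 1 to 9 reads per library.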
